A study of Arabidopsis thaliana with 24 samples.

Results

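The expression of 10 genes of the leaf iron response was followed over the day, library by library: the class Ib transcription factor genes bHLH38 (AT3G56970), bHLH39 (AT3G56980), bHLH100 (AT2G41240) and bHLH101 (AT5G04150), the regulators PYE (AT3G47640), BTS (AT3G18290) and IMA1 (AT1G47400), the transporter gene OPT3 (AT4G16370), and the ferritin genes FER1 (AT5G01600) and FER4 (AT2G40300). These 10 genes were named by locus among the 24503 genes of the deposited table. RNA-seq was done on whole rosettes of Arabidopsis thaliana Col-0, the wild type, and of jaz4-1, 1 T-DNA line (SALK_141628C) in which JAZ4 is interrupted, a gene for a protein that represses jasmonate signalling. All plants were 3 weeks old, grew on soil with 12 h of light a day, and were harvested at ZT0 (dawn), ZT6, ZT12 (dusk) or ZT18 (night), where ZT counts hours from dawn. Each of the 8 groups of line and time had 3 libraries, each from 6 pooled rosettes and labelled as a separate biological replicate.

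Iron-starved plants raise the class Ib bHLH factors, which join the factor FIT in roots to turn on iron uptake genes and are induced in leaves as well. Upstream of them stand further bHLH proteins, which BTS, an E3 ubiquitin ligase with iron-binding domains, marks for breakdown, while IMA1, a short peptide, holds BTS back. PYE is a bHLH repressor of iron transport genes that is itself induced by iron shortage. OPT3 loads iron into the phloem and is needed for the shoot to report its iron status to the root. FER1 and FER4 encode ferritins, the proteins that store iron in plastids, and their mRNAs rise when iron is plentiful.

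Library totals ran from 16832200 to 22644700 reads (median 20068900). The 4 rosette markers summed to 520762 rescaled reads or more in every library, whereas the 3 of 6 root markers present in the table summed to between 3.59 and 31.5 and 4 floral markers to between 0 and 36.99. JAZ4 itself had few reads, with 15 to 33 reads over the 3 Col-0 libraries of a time and 6 to 12 over those of jaz4-1. The fitted jaz4-1 minus Col-0 difference of JAZ4 on average over the times was -1.24 (log2, SE 0.50, adjusted p = 0.152 by limma), so the label of the line could not be checked firmly at this depth. In whole rosettes, fewer cells of a type and less RNA per cell cannot be told apart.

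The 250 bases before the annotated start were read from RefSeq (build TAIR10.1) for 9 of the genes, and those of 4 genes held at least 1 G-box, CACGTG, a palindrome that reads the same on both strands. These 4 promoters are printed because this word sets them apart from the promoters of bHLH39, bHLH101, PYE, IMA1 and FER1, which lack it in this window. They are bHLH38 at chr3:21085246-21085495 (minus strand), bHLH100 at chr2:17199455-17199704 (minus strand), BTS at chr3:6273716-6273965 (plus strand) and OPT3 at chr4:9250344-9250593 (minus strand). They are written 5′ to 3′ on the strand of the gene, with the G-box in capitals.
bHLH38: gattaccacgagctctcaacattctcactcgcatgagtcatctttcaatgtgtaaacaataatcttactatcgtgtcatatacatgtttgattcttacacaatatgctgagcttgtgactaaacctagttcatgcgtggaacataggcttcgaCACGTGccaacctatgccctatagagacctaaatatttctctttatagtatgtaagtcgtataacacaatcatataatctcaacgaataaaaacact
bHLH100: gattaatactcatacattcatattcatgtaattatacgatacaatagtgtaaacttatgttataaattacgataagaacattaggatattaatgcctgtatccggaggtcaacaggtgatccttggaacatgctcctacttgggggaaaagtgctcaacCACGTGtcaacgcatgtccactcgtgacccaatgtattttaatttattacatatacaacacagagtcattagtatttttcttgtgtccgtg
BTS: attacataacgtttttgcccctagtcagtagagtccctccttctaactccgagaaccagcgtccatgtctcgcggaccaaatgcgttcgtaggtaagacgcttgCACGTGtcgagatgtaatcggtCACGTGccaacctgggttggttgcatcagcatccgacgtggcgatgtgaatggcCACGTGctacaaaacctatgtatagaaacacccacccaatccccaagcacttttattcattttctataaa
OPT3: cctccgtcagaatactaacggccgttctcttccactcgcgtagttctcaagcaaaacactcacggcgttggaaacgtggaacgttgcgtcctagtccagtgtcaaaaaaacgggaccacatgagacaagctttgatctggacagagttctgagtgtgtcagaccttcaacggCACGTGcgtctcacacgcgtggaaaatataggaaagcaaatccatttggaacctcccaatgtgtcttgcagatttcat

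BTS held 3 copies of the G-box in its 250 bases, and bHLH38, bHLH100 and OPT3 held 1 each. Of 27561 promoters of the same length in the RefSeq annotation, 6.46% held the word. The looser E-box, CANNTG, of which every G-box is a case, stood in 6 of the 9 promoters and in 55.2% of all. The evening element, AAATATCT, and the phosphate starvation word P1BS, GNATATNC, each searched on both strands, stood in 0 of the 9 and in 4.78% and 5.46% of all promoters. A match describes the letters and is not a binding site.

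bHLH38 and bHLH39 are neighbours on chromosome 3, with 1144 bases between them. bHLH38 overlaps PIP5K4, bHLH101 overlaps GLU1 and FER1 overlaps AT5G01595, each on the opposite strand, and FER4 overlaps AT2G40290 on its own strand. The sources used here do not say whether strand was used in counting, so reads from these overlaps cannot be told apart. IMA1 shared 10 of its 730 stretches of 50 bases with the related peptide gene IMA2, and no other member shared a stretch of 50 bases with another iron gene examined.

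The members differed widely in level. Per kilobase of exon, the median over the 12 Col-0 libraries was 1233 rescaled reads for OPT3, 901 for FER1, 775 for FER4, 359 for BTS and 108 for PYE. It was 21.3 for IMA1 and between 0.851 and 3.83 for the 4 class Ib genes. In jaz4-1 the order of the first 5 was the same, with a median of 1308 for OPT3 and 107 for PYE. Rescaled reads are read counts recovered from the deposited values and divided by 1 size factor per library computed over all 24 libraries, so that times can be compared. The class Ib genes reached 10 reads in 6 to 11 of the 24 libraries and IMA1 in 15, and they entered the tests through those libraries. bHLH38 and bHLH39 had at least 10 reads in every library of a group only in jaz4-1 at ZT18, and bHLH100 only in jaz4-1 at ZT12 and ZT18. bHLH101 had no such group. PYE, BTS, OPT3, FER1 and FER4 had at least 61 reads in every library.

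The 4 class Ib genes had few or no reads in most libraries at dawn, and 3 of them, bHLH38, bHLH39 and bHLH100, were low at ZT6 as well. bHLH39 had 0 reads in all 3 Col-0 libraries at ZT0, and bHLH101 also had 0 in all 3. bHLH100 had 0.921, 0 and 0 rescaled reads in Col-0 at ZT0 and 28.4, 0 and 11.4 in jaz4-1. At ZT6 its highest value in either line was 2.42. bHLH101 was the exception at ZT6, with 32.3, 3.80 and 16.9 in Col-0 and 9.44, 34.3 and 6.74 in jaz4-1.

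At ZT12 the Col-0 libraries parted. bHLH38 stood at 0, 8.82 and 931 rescaled reads in Col-0 replicates 1, 2 and 3, and bHLH39 at 0, 3.21 and 683. bHLH100 stood at 0.749, 12.0 and 1713, and bHLH101 at 4.49, 2.41 and 235. In each case the third library was far above the other 2 and was the highest of all 24. The 3 jaz4-1 libraries at ZT12 lay close together for bHLH100, at 44.4, 49.6 and 56.2, and had 5.87, 0 and 7.90 for bHLH38.

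At ZT18 the class Ib genes were present in every jaz4-1 library and less evenly in Col-0. bHLH38 had 51.0, 78.0 and 53.3 rescaled reads in jaz4-1 against 35.9, 6.04 and 0 in Col-0. bHLH39 had 52.8, 102 and 69.3 against 53.8, 6.04 and 7.14. bHLH100 had 130, 147 and 209 against 231, 15.5 and 8.04. Here replicate 1 of Col-0 lay within the range of jaz4-1 for bHLH39 and above that range for bHLH100. The other Col-0 libraries lay below the range of jaz4-1. bHLH101 was low in both lines, at 7.46 to 14.1 in jaz4-1 and 0 to 12.6 in Col-0.

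IMA1 was absent or nearly so at dawn and present at every other time. It had 0 reads in all 3 jaz4-1 libraries at ZT0 and 3.68, 0 and 1.34 rescaled reads in Col-0. At ZT6 it had 25.6, 20.9 and 38.7 in Col-0 and 12.1, 12.3 and 34.7 in jaz4-1. At ZT12 Col-0 again split, with 6.74, 16.8 and 568, while jaz4-1 had 31.02, 27.8 and 26.3. At ZT18 the lines did not overlap, with 17.0, 16.4 and 15.2 in Col-0 and 33.1, 103 and 50.1 in jaz4-1.

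**Figure D1:**
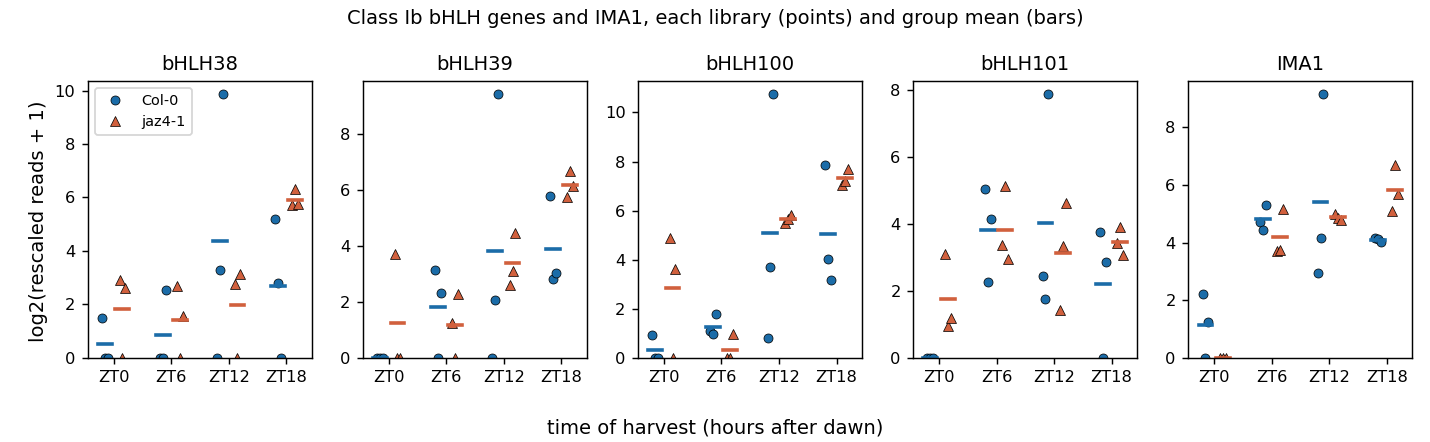
Rescaled reads of the 4 class Ib bHLH genes and of IMA1 in each of the 24 libraries, as log2(value + 1), against the time of harvest, with bars for group means on that log2 scale. Most libraries at ZT0 sit at or near 0, jaz4-1 at ZT18 sits above jaz4-1 at ZT0 and ZT6 for bHLH38, bHLH39 and bHLH100, and Col-0 at ZT12 holds 1 library (replicate 3) far above the other 2.

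BTS, the ligase gene, was expressed throughout. At ZT0 it had 1020.3, 1307 and 1471 rescaled reads in Col-0 and 2077, 1575 and 1473 in jaz4-1. At ZT12 the values were 1598, 2035 and 4756 in Col-0 and 1582, 1943 and 2660.1 in jaz4-1, so that replicate 3 of Col-0 stood highest of the 24 here too. At ZT18 Col-0 had 2394, 1556 and 1543 and jaz4-1 had 2563, 2510.1 and 2541, without overlap. PYE, the repressor gene, kept a narrower range, from 116.7 to 158 in Col-0 at ZT0 and from 77.1 to 136 in jaz4-1, with its highest value, 376, again in replicate 3 of Col-0 at ZT12. Its other libraries at ZT12 lay between 166 and 213.

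OPT3, the phloem transporter gene, had 1881, 2088 and 3463 rescaled reads in Col-0 at ZT0 and 3390, 3081 and 2201 in jaz4-1. At ZT18 it had 4091, 2844 and 3424 in Col-0 and 4405, 4715 and 5224 in jaz4-1, and the lines did not overlap. Its value of 5160.0 in replicate 3 of Col-0 at ZT12 was second among the 24 libraries to 5224.

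The ferritin genes had the opposite day course and were highest at dawn. FER1 had 2165, 2577 and 2042 rescaled reads in Col-0 at ZT0 and 2506, 2034 and 2373 in jaz4-1, above every ZT6 library, where the range was 1052 to 1349. At ZT12 it had 1212, 973 and 872 in Col-0, the last being replicate 3 and the lowest of all 24 libraries. In jaz4-1 at ZT12 it had 1029, 1202 and 3255, the last being the highest of the 24. FER4 ran from 1511 to 1816 at ZT0, from 946 to 1251 at ZT6 and from 767 to 925 at ZT12 over both lines, with no overlap between ZT0 and any other time.

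**Figure D2:**
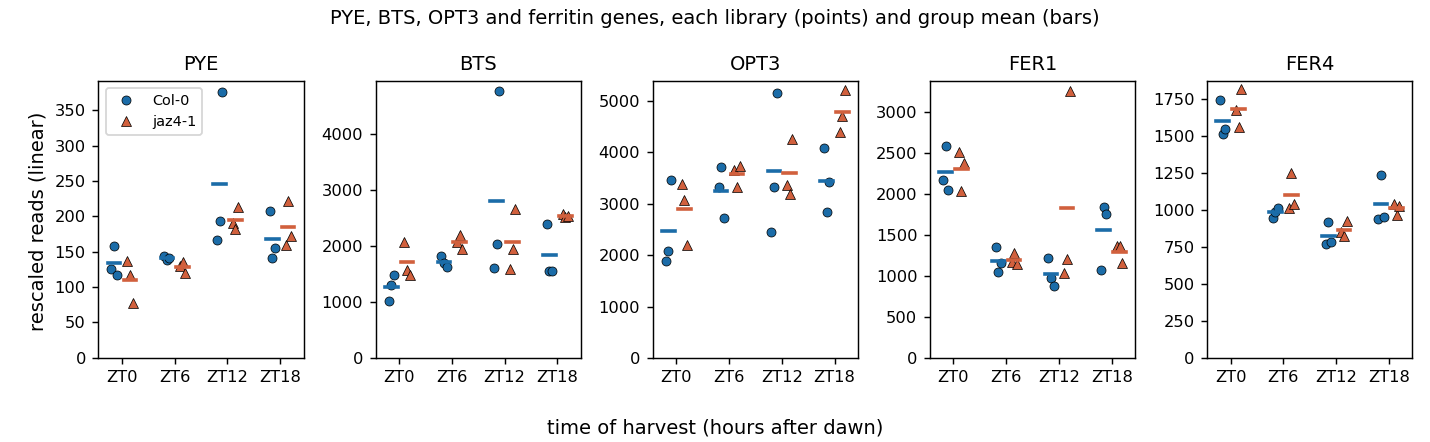
Rescaled reads of PYE, BTS, OPT3, FER1 and FER4 in each of the 24 libraries on a linear scale, against the time of harvest, with bars for group means. FER1 and FER4 are highest at ZT0, and single libraries stand out at ZT12 (BTS and PYE in Col-0 replicate 3, FER1 in jaz4-1 replicate 3).

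From night to dawn, between ZT18 and ZT0, the members divided into falling regulators and rising ferritins. On the mean of both lines, 9 of the 10 members changed (limma, adjusted p under 0.05), 7 lower and 2 higher, where 39.4% of the 19614 genes tested were called, 20.5% lower and 19% higher. All fold changes are differences of log2(value + 1), a scale that understates changes of low genes. The median log2 change was -1.30 for the members and -0.06 for all genes tested. The class Ib genes passed the filter through libraries in which they were high, those of ZT18 among them. The count and the median beside all genes are therefore descriptive.

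Among the class Ib genes, bHLH39 fell by 4.42 (log2, SE 1.13, adjusted p = 0.00357), bHLH100 by 4.60 (SE 1.18, adjusted p = 0.00407) and bHLH38 by 3.13 (SE 1.21, adjusted p = 0.0449). The call for bHLH38 was lost under 20 of 34 alternative settings, with adjusted p up to 0.255. bHLH101 differed by -1.97 (SE 0.89, adjusted p = 0.0829), which did not pass with all libraries and passed under 5 of 35 alternatives. Replicate 3 of Col-0 at ZT12 belongs to neither of these times but enters the pooled spread. Without it both changes were the same, and adjusted p by limma was 0.0271 for bHLH101 and 0.0067 for bHLH38. All 10 members were then called. Fitted values of genes with groups at 0 depend on the pseudocount. Taking 3 reads over the 3 libraries as the floor, bHLH39 in Col-0 was at least 18.7-fold higher at ZT18 than at ZT0 and bHLH101 at least 5.22-fold higher. These bounds use summed reads. The 3 Col-0 libraries at ZT18 had 60, 7 and 8 reads of bHLH39 and 14, 0 and 7 of bHLH101.

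Of the regulators, IMA1 fell by 4.39 (SE 0.69, adjusted p = 2.2e-05), and in jaz4-1, where it had 0 reads at ZT0, it was at least 57.1-fold higher at ZT18. BTS fell by 0.55 (SE 0.20, adjusted p = 0.03) and PYE by 0.54 (SE 0.18, adjusted p = 0.0171). OPT3 fell by 0.63 (SE 0.17, adjusted p = 0.00461). The ferritin genes rose together, FER1 by 0.70 (SE 0.20, adjusted p = 0.00852) and FER4 by 0.68 (SE 0.08, adjusted p = 6.18e-07). The calls of bHLH39, OPT3 and FER4 held under all 35 alternatives, while BTS lost its call under 7 of 35 and PYE under 3 of 35.

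From ZT0 to ZT6, 4 members changed, 2 higher and 2 lower, where 53.7% of all genes tested were called, 27.1% higher and 26.6% lower. IMA1 rose by 3.94 (log2, SE 0.69, adjusted p = 4.33e-05) and bHLH101 by 2.95 (SE 0.89, adjusted p = 0.00738). FER1 fell by 0.94 (SE 0.20, adjusted p = 0.000492) and FER4 by 0.66 (SE 0.08, adjusted p = 5.15e-07). OPT3 differed by 0.38 (SE 0.17, adjusted p = 0.0609) and BTS by 0.37 (SE 0.20, adjusted p = 0.121), neither of which passed. Both passed when replicate 3 of Col-0 at ZT12 was left out, with adjusted p = 0.0333 and 0.0235.

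From ZT6 to ZT12, 3 members changed, where 23.8% of all genes were called. bHLH100 rose by 4.58 (log2, SE 1.18, adjusted p = 0.0065) and PYE by 0.65 (SE 0.18, adjusted p = 0.00777), while FER4 fell by 0.30 (SE 0.08, adjusted p = 0.00878). Without replicate 3 of Col-0 at ZT12 the rise of bHLH100 on the mean of both lines was 3.16 (adjusted p = 0.00598) and that of PYE 0.47 (adjusted p = 0.0293). bHLH38 and bHLH39 differed by 2.05 (SE 1.21, adjusted p = 0.252) and 2.11 (SE 1.13, adjusted p = 0.2) with all libraries and by 0.68 and 0.71 without that library. In jaz4-1, bHLH100 went from 0 to 0.963 rescaled reads at ZT6 to between 44.4 and 56.2 at ZT12. In Col-0 it had 0.950 to 2.42 at ZT6, and 0.749 and 12.0 in replicates 1 and 2 at ZT12. From ZT12 to ZT18, 1 member changed, where 29.8% of all genes were called, and this was FER4, which rose by 0.28 (SE 0.08, adjusted p = 0.0129).

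**Figure D3:**
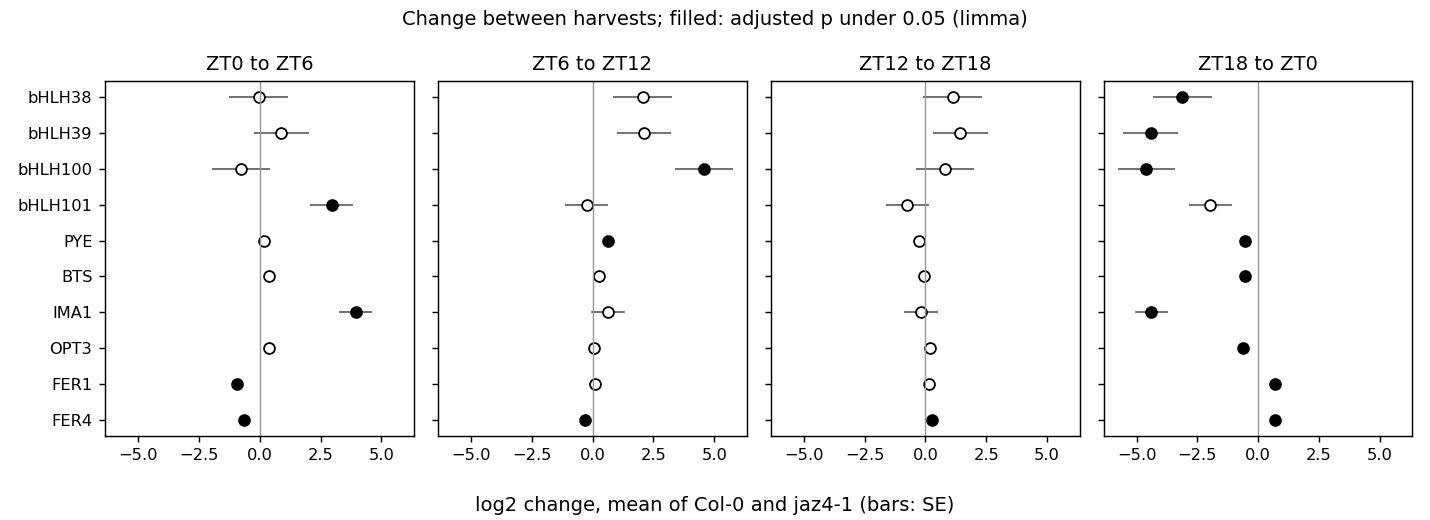
Log2 change of each member between neighbouring times of the daily cycle, on the mean of Col-0 and jaz4-1, with SE bars (small bars lie within the points). Filled points have an adjusted p under 0.05 by limma. Between ZT18 and ZT0 the regulators and OPT3 lie below 0 and the 2 ferritin genes above 0, while between ZT0 and ZT6 IMA1 and bHLH101 lie above 0 and the ferritin genes below.

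Within Col-0 alone, 7 members changed over the 4 times by the F test of limma, where 49.1% of all genes were called. They were bHLH100, bHLH101, IMA1, BTS, PYE, FER1 and FER4. Within jaz4-1, 6 members changed, where 53.5% of all genes were called, and these were bHLH39, bHLH100, IMA1, PYE, FER1 and FER4. The adjusted p of FER4 was 3.54e-06 in Col-0 and 2.94e-06 in jaz4-1, and that of IMA1 was 0.00375 and 0.000129. In Col-0, BTS (adjusted p = 0.0364) and PYE (adjusted p = 0.0407) did not pass without replicate 3 of ZT12, at 0.0731 and 0.294. bHLH39 then passed in Col-0, at 0.025. Whether the day course differed between the lines was tested directly, and it was not called for any member (0 of 10 by limma, where 0.194% of all genes were called). The smallest unadjusted p was 0.169, for bHLH38, so 0 members had one under 0.05, and edgeR, limma-voom and DESeq2 each called 0.

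At none of the 4 times was a member called between jaz4-1 and Col-0 by limma. The count was 0 of 10 at ZT0, ZT6, ZT12 and ZT18, where 0.923%, 2.95%, 0.321% and 0.138% of all genes were called, and 0 of 10 on average over the times, where 4.68% were called. At an unadjusted p under 0.05 the counts were 0 at ZT0, ZT6 and ZT18, 1 at ZT12 and 0 on average. edgeR and limma-voom also called 0 in each of these comparisons, and DESeq2 called bHLH39 at ZT0 and on average. At ZT0 bHLH39 had 11 reads in 1 jaz4-1 library and 0 reads in the other 5 libraries. Log2 differences between the lines were taken on the deposited values, which within a time differ from the rescaled reads by a nearly constant ratio (spread of at most 2.38%).

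At ZT18, 8 of the 10 members had a positive jaz4-1 minus Col-0 difference, with a median of 0.91 (log2) against 0.00 for all genes tested. This contrast is descriptive, since bHLH38, bHLH39 and bHLH100 passed the filter partly through the jaz4-1 libraries of ZT18. For bHLH38 the difference was 3.29 (SE 1.73), for bHLH39 2.33 (SE 1.60), for bHLH100 2.30 (SE 1.68) and for bHLH101 1.31 (SE 1.26). IMA1 differed by 1.73 (SE 0.97), BTS by 0.50 (SE 0.28), OPT3 by 0.48 (SE 0.24) and PYE by 0.14 (SE 0.25). FER1 differed by -0.23 (SE 0.29) and FER4 by -0.03 (SE 0.12). Adjusted p was 1 for all 10 by limma over the 19614 genes tested, so none of these differences was called. The smallest unadjusted p was 0.0539, for OPT3. The SEs pool the spread of all groups, including that of Col-0 at ZT12. Without replicate 3 of that group the adjusted p of IMA1 by limma was 0.86, and 0 members were called. A fit of only the 6 libraries of ZT18 also called 0. Leaving out 1 library at a time moved the difference between 1.92 and 4.57 for bHLH38, 1.80 and 3.28 for bHLH39, 1.37 and 3.71 for bHLH100, 0.17 and 2.10 for bHLH101, and 1.28 and 2.10 for IMA1.

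The 3 libraries of jaz4-1 lay above all 3 of Col-0 at ZT18 for 4 members, bHLH38, IMA1, BTS and OPT3, where 5.03% of the genes tested did so. Of these, bHLH38 passed the filter partly through the same jaz4-1 libraries. The opposite arrangement held for 0 members and for 5.13% of genes. At ZT12 the groups overlapped for all 10 members, where 7.49% of genes were higher and 7.16% lower without overlap. At ZT0, where 6.75% of genes were higher without overlap, BTS and bHLH101 were, and at ZT6 BTS was, as were 13.9% of genes. For bHLH101 this rested on 7, 1 and 1 reads in jaz4-1 at ZT0 beside 0 in each Col-0 library. PYE was lower without overlap at ZT6, with 12.9% of genes. The difference of BTS on average over the times was 0.22 (SE 0.14, adjusted p = 0.379). That of OPT3 was 0.22 (SE 0.12, adjusted p = 0.284). Without replicate 3 of Col-0 at ZT12 they were 0.34 (adjusted p = 0.0537 by limma) and 0.30 (adjusted p = 0.133). Both were called under 0 of 35 alternatives.

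At ZT12 the difference between the lines turned on replicate 3 of Col-0. With all libraries, bHLH38 differed by -2.42 (log2, SE 1.73), bHLH101 by -0.91 (SE 1.26), IMA1 by -0.55 (SE 0.97), bHLH39 by -0.37 (SE 1.60), BTS by -0.31 (SE 0.28) and PYE by -0.24 (SE 0.25). Without that library the same differences were 0.36, 1.03, 1.33, 2.47, 0.15 and 0.11, and that of bHLH100 went from 0.63 (SE 1.68) to 3.48. None passed with or without it, and the lowest adjusted p among the 10 members without it was 0.682. FER1 differed by 0.65 (SE 0.29, unadjusted p = 0.0331, adjusted p = 0.924), or by 0.13 to 0.96 when 1 library at a time was left out, with 3255 rescaled reads in replicate 3 of jaz4-1 beside 1029 and 1202.

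**Figure D4:**
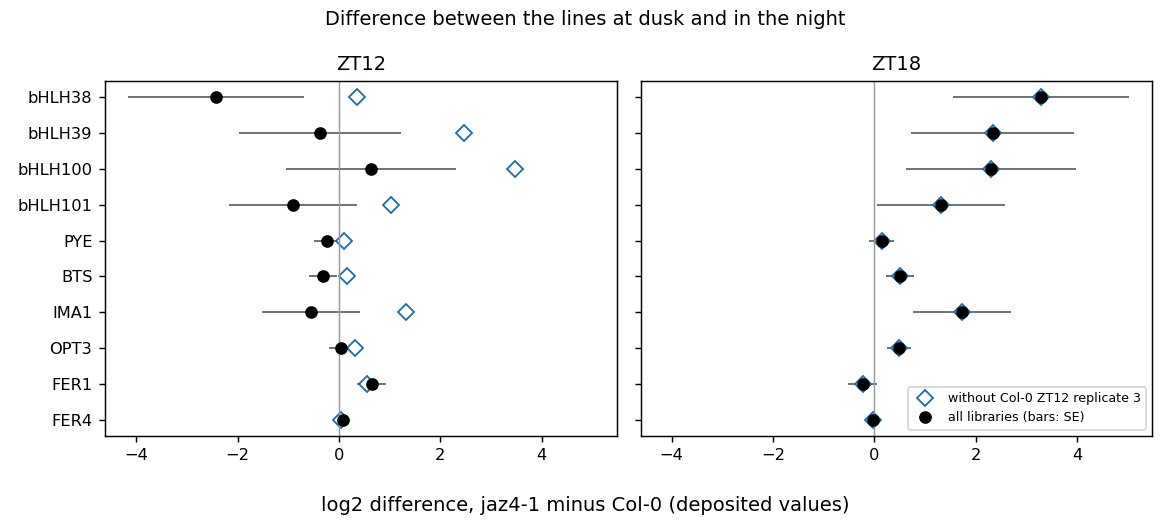
Log2 difference of each member, jaz4-1 minus Col-0 on the deposited values, at ZT12 and at ZT18, with SE bars; open diamonds give the fit without Col-0 ZT12 replicate 3. At ZT12 the diamonds of 6 members lie on the other side of 0 from the filled points, and at ZT18, where that library does not enter the group means, both coincide.

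Replicate 3 of Col-0 at ZT12 was the highest of the 24 libraries for 7 of the 10 members and for 8 of 42 other iron genes in the table, while it was highest for 6.93% of all genes tested. It was the lowest of the 24 for 1 member, FER1, and for 5 of the 42, among them bHLH121, FRO6 and NEET, and for 6.30% of all genes tested. Among the 8 were IMA2 at 734 rescaled reads, IMA3 at 566, FRO3 at 1401, NAS4 at 745, ZIF1 at 1809 and NRAMP4 at 1380.2. The next highest library for FRO3, which encodes a ferric reductase, had 579, and that for ZIF1, a vacuolar carrier of the iron chelator nicotianamine, had 1084. Its root marker sum of 27.8, floral marker sum of 20.2 and leaf marker sum of 648354 lay within the ranges of the other libraries.

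Apart from group means, the deviations of BTS and IMA1 followed those of the class Ib genes by Pearson's r, and no member passed by Spearman's rho. Each value was taken as its deviation from its group mean on the log2 scale, and 6 members were related to the mean of the 4 class Ib genes over 24 libraries, with p from permutations within groups adjusted over the 6. For BTS, Pearson's r was 0.87 (adjusted permutation p = 0.0184) and Spearman's rho 0.64 (adjusted permutation p = 0.0655). For IMA1, r was 0.81 (adjusted permutation p = 0.00276) and rho 0.51 (adjusted permutation p = 0.0655). For PYE, r was 0.77 (adjusted permutation p = 0.06) and rho 0.58 (adjusted permutation p = 0.0655).

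These relations leaned on few libraries. Without the 2 libraries farthest from the median, replicates 3 and 1 of Col-0 at ZT12, r was 0.67 for BTS, 0.36 for IMA1 and 0.52 for PYE. The size of r for IMA1 thus rested on those libraries. Its adjusted permutation p stayed under 0.05 under all 28 alternative settings, none of which left out both of them. For OPT3, r was 0.59 (adjusted permutation p = 0.111) and 0.23 without them, with a rho of 0.39 (adjusted permutation p = 0.235). FER1 and FER4 both had an r of -0.12 (adjusted permutation p = 0.701 and 0.777) and a rho of -0.06 and 0.00 (adjusted permutation p = 0.978 and 0.993). Unadjusted, the permutation p of r was 0.0061 for BTS, 0.00046 for IMA1, 0.03 for PYE, 0.0741 for OPT3, 0.584 for FER1 and 0.777 for FER4, and that of rho was 0.0224, 0.0134, 0.0327, 0.157, 0.815 and 0.993.

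**Figure D5:**
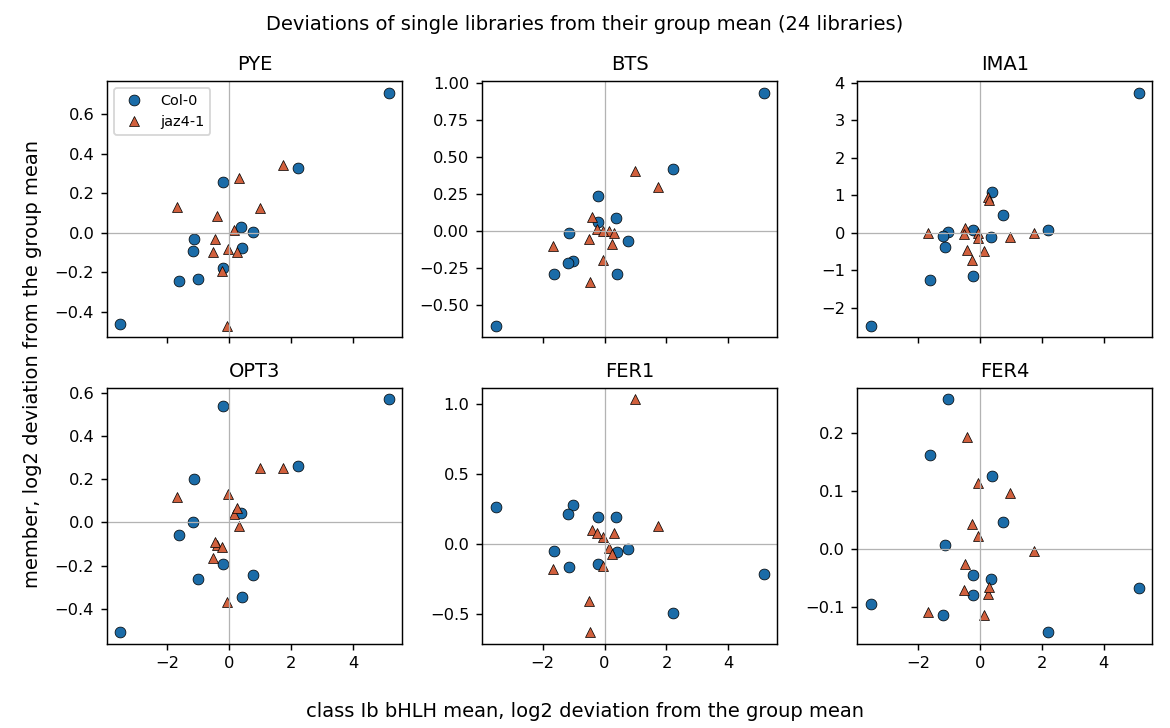
Deviation of each of 6 members from its group mean (vertical, log2) against that of the mean of the 4 class Ib bHLH genes (horizontal, log2), 1 point per library and 24 in all. With all 24 libraries r is 0.87 for BTS, 0.81 for IMA1 and 0.77 for PYE, of which PYE did not pass, and the point at the far right of each panel is Col-0 ZT12 replicate 3.

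The genes most like the class Ib mean over the 24 libraries, out of 18437 compared by Pearson's r, were AT5G53450 (PAP14 in the files and ORG1 in RefSeq, r = 0.93), AT1G13609 (r = 0.93), AT2G14247 (r = 0.90), IMA2 (AT1G47395, r = 0.78) and FRO3 (r = 0.76). Without replicate 3 of Col-0 at ZT12 the first 3 kept an r of 0.90, 0.91 and 0.90, and IMA2 and FRO3 had 0.67 and 0.56. The genes most like the mean of FER1 and FER4 were CLC-B (r = 0.92), AT4G29950 (r = 0.92), MED26B (r = 0.92), AT5G13760 (r = 0.92) and RVE1 (r = 0.92), a clock-related transcription factor gene. The libraries share their times of harvest, so this likeness includes likeness over the day.

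Of 47 other iron genes listed, 38 entered the tests, and from ZT18 to ZT0 24 of them (63.2%) changed, beside 39.4% of all genes tested, 15 higher and 9 lower. IMA3 fell by 3.41 (log2, SE 0.62, adjusted p = 0.000208) and IMA2 by 2.43 (SE 0.73, adjusted p = 0.0112), both peptide genes related to IMA1, and BTSL1, a BTS-like ligase gene, fell by 2.18 (SE 0.75, adjusted p = 0.0247). Of the ferric reductases, FRO8 fell by 1.498 (SE 0.18, adjusted p = 8.45e-07) while the chloroplast reductase FRO7 rose by 0.50 (SE 0.17, adjusted p = 0.0264) and FRO6 rose by 1.29 (SE 0.18, adjusted p = 5.21e-06).

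The third leaf ferritin, FER3, moved against FER1 and FER4. It fell by 0.96 from ZT18 to ZT0 (SE 0.09, adjusted p = 7.43e-09) and had its highest values at ZT12, at 1781 to 2159 rescaled reads in Col-0 and 2029 to 2163 in jaz4-1, where FER4 was lowest. Of the other storage and excess genes, NEET, an iron-sulphur protein gene, rose by 1.18 (SE 0.25, adjusted p = 0.000995) and VTL2, a vacuolar iron transporter-like gene, by 0.84 (SE 0.29, adjusted p = 0.0261). Among 13 tested transport genes, 6 rose and 2 fell, led by YSL2 at 0.92 (SE 0.15, adjusted p = 4.91e-05), NRAMP1 at 0.85 (SE 0.20, adjusted p = 0.00171) and NAS3 at 1.23 (SE 0.34, adjusted p = 0.00627).

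Of the 6 upstream bHLH genes, bHLH121 rose from ZT18 to ZT0 by 0.96 (SE 0.11, adjusted p = 2.08e-07) and bHLH34 by 0.54 (SE 0.15, adjusted p = 0.00569), and the other 4 did not pass. Of the root uptake list, in which 5 of 11 genes entered the tests, AHA2 fell by 0.53 (SE 0.12, adjusted p = 0.00105), MYB10 fell by 1.27 (SE 0.34, adjusted p = 0.00422) and FRO2 rose by 1.81 (SE 0.46, adjusted p = 0.00314). In the other intervals, 23 of the 38 genes (60.5%) changed from ZT0 to ZT6, 12 (31.6%) from ZT6 to ZT12 and 9 (23.7%) from ZT12 to ZT18, beside 53.7%, 23.8% and 29.8% of all genes tested.

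Between the lines, 3 of the 38 (7.89%) changed on average over the times, 2 higher and 1 lower in jaz4-1, where 4.68% of all genes were called. YSL3, a transporter gene for metals bound to nicotianamine, was higher by 0.57 (log2, SE 0.08, adjusted p = 0.000186), and it was also called at ZT0 (0.80, SE 0.17, adjusted p = 0.0182) and at ZT6 (0.66, SE 0.17, adjusted p = 0.0329). The call at ZT0 was lost under 5 of 36 alternatives and that at ZT6 under 6 of 36, with adjusted p up to 0.433 and 0.145, while the call on average held under all 35. Its Col-0 libraries had 579 to 778 rescaled reads at ZT0 and those of jaz4-1 919 to 1480, without overlap. FRO6 was higher by 0.59 (SE 0.12, adjusted p = 0.00717). NAS1, a nicotianamine synthase gene, was lower by a log2 difference of -0.41 (SE 0.12, adjusted p = 0.0498), a call lost under 25 of 35 alternatives.

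Where the authors' deposited table gave an adjusted p between the lines, it was under 0.05 for no member. It gave no adjusted p for bHLH38 and bHLH39 at ZT0, ZT6 and ZT12, or for bHLH100 at ZT6 and ZT12. For bHLH101 and IMA1 the adjusted p was missing at ZT0 and ZT12, so these comparisons are not negative results. The lowest adjusted p given was 0.0707, for IMA1 at ZT18, with a deposited log2 fold change of 0.39. For genes with few reads the deposited fold changes were much smaller than the differences given above. That of bHLH38 at ZT18 was 0.055 beside 3.29, so the sizes are not compared here.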

How the data were processed

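Read ends were aligned and counted with HISAT2 and featureCounts on TAIR10, per the submitters' processing notes. The sources used here give neither version nor settings for them. The deposited table holds 1 signal value per gene and library, called RPKM per the file headers but not scaled by gene length. Multiplied by 1 factor per library, 100% of these deposited signal values lay within 0.001 of a whole read, and those factors are the median-of-ratios size factors of the 6 libraries of each time. Deposited values are therefore comparable between the lines at a time, and recovered reads were rescaled over all 24 libraries for comparisons between times. The authors' log2 fold changes and adjusted p-values, which the deposited table gives per time, were used only where that table is named.

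Because the values are normalised, limma-trend was the test (limma 3.58.1, R 4.3.3, robust empirical Bayes, log2(value + 1), 1 coefficient per line and time, Benjamini-Hochberg over all genes). Of the 24503 genes, 19614 passed filterByExpr (edgeR 4.0.16, minimum count 10, minimum total count 15), and an adjusted p under 0.05 was a call. edgeR's quasi-likelihood test on the recovered reads called 151, 532, 71 and 25 genes between the lines at ZT0, ZT6, ZT12 and ZT18 and 958 on average. The median-of-ratios test of DESeq2 1.42.0 and limma-voom were further alternatives. The fit of the line difference at a time was tested on simulated data. These had the same dispersion for every gene, so they do not cover genes that spread within a group as widely as the class Ib genes. Correlations used 100000 permutations within groups.

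The members and lists were chosen with earlier results of these data known. All 10 members are named, and the promoter of 1 of them is not reported here. Of the other listed iron genes, up to 3 called per list are named by smallest p for the lines and for ZT18 to ZT0, and only counted for the other intervals. The names of the IMA and BTSL genes follow published usage. Likeness was measured on log2(rescaled reads + 1) among genes with a mean of at least 10. The sources used here do not say that same-numbered replicates belong together, and no pairing was assumed. Each group had 3 libraries, and the p-values of the main limma fit rest on the spread between libraries pooled over all groups. A library that stands apart in its group thus widens the SE of comparisons that it does not enter. Floors and counts cover counting error only.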

Additional observations from a re-analysis of the deposited data

How the results depend on the processing

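The count of members called between jaz4-1 and Col-0 was 0 at ZT6, ZT12 and ZT18 and for the dependence on time under each alternative run. DESeq2 called 1 at ZT0 and 1 on average. For the change over time, limma-voom called 3 members in Col-0, 3 in jaz4-1 and 2 from ZT0 to ZT6, and leaving out both libraries with few detected genes (Col-0 ZT0 replicate 2 and jaz4-1 ZT6 replicate 2) gave 3 in Col-0. From ZT12 to ZT18 the values scaled within each time gave 0, and leaving out both replicates 3 of ZT12, chosen after seeing the data, gave 3. Leaving out 1 library at a time gave 0 to 0 members called for each comparison of the lines, 3 to 10 for Col-0 over time, 3 to 8 for jaz4-1, 4 to 6 from ZT0 to ZT6, 3 to 5 from ZT6 to ZT12, 0 to 3 from ZT12 to ZT18 and 6 to 10 from ZT18 to ZT0. With a replicate block, 6 members were called over time in Col-0, where PYE no longer passed, and the number called in every other comparison was as without it. The block holds an effect per replicate number that all times share, so it cannot take up a pairing of the lines within a time. Of the 12 same-numbered pairs of the lines, 7 had a correlation of deviations over 0.1 (range -0.10 to 0.33), including the 3 at ZT0, and 19 of 24 libraries correlated best with their own number, a hint from the data and not from the design. Each cause was not tested.

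The correlation with the class Ib mean ranged over single left-out libraries from 0.66 to 0.91 for BTS, 0.32 to 0.86 for IMA1, 0.49 to 0.86 for PYE, 0.30 to 0.71 for OPT3, -0.446 to 0.0373 for FER1 and -0.301 to 0.0213 for FER4. IMA1 kept its call under 28 of 28 alternatives and BTS under 21 of 28. Among the losses, BTS did not pass without both replicates 3 of ZT12 (0.62). PYE, which did not pass with all libraries, stayed so under 25 of 28 and passed, for example, with a pseudocount of 5 (0.81).

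Single values that changed sign were the following. FER4 from ZT6 to ZT12 was 0.0581 when scaled within each time. At ZT12 the line difference of OPT3 was -0.0162 by DESeq2 and -0.0117 by edgeR, that of bHLH100 was -3.50 by edgeR and that of bHLH39 was 0.33 by limma-voom. Without both replicates 3 of ZT12 the differences were 1.93 for bHLH39, 0.27 for bHLH101, 1.38 for IMA1, 0.0453 for PYE and -0.0112 for FER4. Over single left-out libraries, the differences at ZT12 ranged from -4.69 to 0.365 for bHLH38, -2.36 to 2.47 for bHLH39, -1.55 to 3.48 for bHLH100, -2.06 to 1.03 for bHLH101, -0.471 to 0.111 for PYE, -0.627 to 0.154 for BTS, -1.78 to 1.33 for IMA1 and -0.215 to 0.319 for OPT3. At ZT18 they ranged from -0.00163 to 0.302 for PYE and from -0.106 to 0.102 for FER4.

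Depth limits the class Ib genes and IMA1 most, since they had under 10 reads in 9 to 18 of 24 libraries. The number of genes called between the lines also moved: DESeq2 called 355, 1164, 165 and 55 at ZT0, ZT6, ZT12 and ZT18, 1662 on average and 209 for the dependence on time, against 181, 578, 63, 27, 918 and 38 by limma. Fits of the 6 libraries of a time called 29 at ZT0 and 25 at ZT12, the fit without both libraries with few genes called 241 at ZT6 and 5 for the dependence on time, and that without both replicates 3 of ZT12 called 25 at ZT12 and 575 on average. From ZT6 to ZT12, 4676 genes were called, and 11014 on values scaled within each time.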
